A study of Mus musculus with 12 samples.

Results

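Extracellular matrix genes were followed in RNA of the embryonic mouse dorsal cortex after loss of Ash2l. The 63 genes were taken by their symbols alone: every collagen chain named Col with a type and a chain number, the laminin chains, both nidogens, both fibrillins and the fibulins whose symbols begin with Fbln. They were 44 collagen chains, 11 laminin chains, 2 nidogens, 2 fibrillins and 4 fibulins, out of 27179 genes in the count tables, of which 26332 had a symbol. No measured value entered this choice.

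RNA-seq libraries of dorsal cortex from C57BL/6 mice fell into 4 groups of 3: E16.5 conditional knockout (cKO), E16.5 wild type (WT), E14.5 cKO and E14.5 WT. In the cKO embryos, Cre recombinase driven by D6, a regulatory element active in neural progenitors of the dorsal telencephalon, removed Ash2l, a core subunit of the COMPASS complexes that methylate histone H3 on lysine. Cells outside that lineage, such as meningeal fibroblasts, vessel cells and blood cells, are not part of what D6 is known to target, and they are in the dissected tissue. The study asked what Ash2l does while the cortex forms. The labels used here do not say whether the WT embryos carry Cre or loxP alleles, how many embryos make up a library, or which exons are removed. A p-value therefore speaks of how libraries vary, and some of that variation may come from handling. Libraries are named by age, genotype and the letters A, B and C, and a cKO and a WT library with the same letter at 1 age share a number in their titles. The RNA is of whole tissue, so fewer cells of a type and less RNA in each cell cannot be told apart.

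Collagen chains wind in threes into fibrils or networks. The fibrillar collagens give connective tissue its strength, and in the developing brain collagens I and III come chiefly from the meninges. Collagen IV, laminin trimers of an alpha, a beta and a gamma chain, and nidogens build basement membranes. One of these lies under the pia, where the end-feet of radial glia attach, and others wrap the vessels. Fibrillins assemble into microfibrils, which scaffold elastic fibres and hold latent growth factors of the TGF-beta family, and fibulins bind to both kinds of matrix.

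The libraries held between 14318147 and 24719047 counted fragments, and the 63 genes together took between 0.0841% and 0.234% of them. Ash2l stood at 54.4, 60.7 and 59.3 CPM (counts scaled to library size) in E16.5 cKO A, B and C, against 135, 129 and 135 CPM in the WT libraries of that age. At E14.5 it stood at 47.0, 59.97 and 51.4 CPM in cKO A, B and C, against 126, 143 and 118 CPM in WT A, B and C. The log2 fold change was -1.202 at E16.5 and -1.28 at E14.5, and at neither age did the groups overlap. By edgeR it was called at both ages, with an adjusted p of 8.19e-04 at E16.5 and 0.0124 at E14.5, and the E14.5 call was lost without cKO C (adjusted p = 0.108) or WT C (0.0885). Cortical identity genes (10 dorsal cortex markers, such as Emx1, Neurod6 and Tbr1) summed to 2431 to 3331 CPM in the 12 libraries, and none of them was at 0. At E16.5 the sums were 2431 to 2747 CPM in cKO and 2986 to 3098 CPM in WT libraries. All E14.5 cKO libraries carried Xist and all E14.5 WT libraries carried Y-linked genes, so embryo sex and genotype cannot be told apart at that age. At E16.5, cKO C and WT A carried Xist and the other 4 libraries Y-linked genes.

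One library stood apart in its matrix genes. E14.5 cKO A held 2272 CPM over the 63 genes, whereas the other E14.5 libraries held between 839 and 1161 CPM and those of E16.5 between 958 and 1203 CPM. It was the highest of the 6 E14.5 libraries for 30 of the 55 tested matrix genes, while it was the highest for 23.7% of all genes tested. Its sum of 16 meningeal fibroblast markers was 235 CPM, against 40.2 to 86.2 CPM in the other 5 libraries. Igf2 alone gave 149 CPM of it, against 25.8 to 53.4 CPM in the others. Most other markers of that list were highest there too, such as Foxc1, Tbx18, Dcn, Lum and Islr. Foxc2, Crabp2, Ogn, Fmod and Ptgds were higher in another library. The sum of 20 endothelial and pericyte markers in E14.5 cKO A was 520 CPM, against 241 to 361 CPM, and of 8 red blood cell markers 653 CPM, against 152 to 318 CPM. Notch3 alone gave 158 CPM of the endothelial and pericyte sum, against 55.0 to 126 CPM in the others. Of that list, Slco1c1 was lowest in E14.5 cKO A, and Mfsd2a, Rgs5, Kcnj8, Abcc9, Cspg4 and Cldn5 were higher in another library. For matrix genes given with a fold change between genotypes at E14.5, edgeR values without this library are therefore given as well. DESeq2 was not run without it.

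Promoters are given for 5 of the genes that differed at E16.5, since Ash2l complexes act on histone H3 at promoters and CG density sets promoters apart. Each runs from 250 bases before to 50 bases after the transcription start in RefSeq (GRCm38.p6, the build of mm10), 5′ to 3′ on the gene's strand, with each CG in capitals. Fbn1 and Lama5 were lower in cKO:
Fbn1, chr2:125506389-125506688, minus strand: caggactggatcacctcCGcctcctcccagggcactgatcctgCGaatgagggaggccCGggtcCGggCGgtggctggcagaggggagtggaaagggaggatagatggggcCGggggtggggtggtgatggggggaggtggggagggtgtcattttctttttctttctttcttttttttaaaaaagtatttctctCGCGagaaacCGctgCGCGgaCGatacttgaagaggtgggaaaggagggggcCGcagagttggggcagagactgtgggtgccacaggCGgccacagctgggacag
Lama5, chr2:180225810-180226109, minus strand: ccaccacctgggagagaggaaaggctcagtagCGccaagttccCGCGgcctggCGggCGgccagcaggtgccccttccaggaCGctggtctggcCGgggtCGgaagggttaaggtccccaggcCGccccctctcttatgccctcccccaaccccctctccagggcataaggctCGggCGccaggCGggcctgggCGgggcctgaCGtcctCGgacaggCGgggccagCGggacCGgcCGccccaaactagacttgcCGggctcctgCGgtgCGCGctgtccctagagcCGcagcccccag
Col16a1, Lama2 and Col4a4 were higher in cKO:
Col16a1, chr4:130047590-130047889, plus strand: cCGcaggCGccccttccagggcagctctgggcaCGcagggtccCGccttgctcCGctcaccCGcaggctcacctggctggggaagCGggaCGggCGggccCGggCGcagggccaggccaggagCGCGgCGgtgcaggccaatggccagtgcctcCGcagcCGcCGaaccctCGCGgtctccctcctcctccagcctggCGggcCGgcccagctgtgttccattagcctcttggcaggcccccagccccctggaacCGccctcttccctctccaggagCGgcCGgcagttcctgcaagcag
Lama2, chr10:27616893-27617192, minus strand: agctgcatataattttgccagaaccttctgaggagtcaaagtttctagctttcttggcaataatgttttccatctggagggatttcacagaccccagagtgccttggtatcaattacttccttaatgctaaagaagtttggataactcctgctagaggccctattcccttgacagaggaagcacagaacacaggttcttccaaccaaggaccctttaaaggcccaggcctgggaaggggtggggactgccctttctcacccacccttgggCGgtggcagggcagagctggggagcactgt
Col4a4, chr1:82586800-82587099, minus strand: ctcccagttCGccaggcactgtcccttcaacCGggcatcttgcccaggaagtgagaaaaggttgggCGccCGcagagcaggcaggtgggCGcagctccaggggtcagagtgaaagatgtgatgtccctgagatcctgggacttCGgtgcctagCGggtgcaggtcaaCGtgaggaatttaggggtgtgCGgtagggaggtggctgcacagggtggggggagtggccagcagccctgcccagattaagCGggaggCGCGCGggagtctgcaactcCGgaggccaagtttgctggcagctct
These windows held 14 CG in Fbn1, 24 in Lama5, 24 in Col16a1, 1 in Lama2 and 14 in Col4a4. Of the matrix genes, 46 matched the RefSeq table. Over 52 of their promoters, with more than 1 for some genes, the median was 12. Over all 32851 promoters in that table the median was 7. At least 10 CG stood in 43.5% of all promoters. On either strand, GGGCGG, the core of the Sp1 motif, which itself holds 1 CG, was found 4 times in the Lama5 window, 2 times in that of Col16a1, and 1 time each in those of Fbn1 and Lama2. It was in 35.7% of all promoters. TATAAA was in none of the 5 windows and in 13.6% of all promoters, and CCAAT was in the Col16a1 window alone of the 5 and in 37.4% of all. The start of Col4a4 lies 72 bases from that of Col4a3, head to head on chromosome 1, and that of Col4a1 lies 3 bases from that of Col4a2 on chromosome 8. The 5 windows are a selection, and among them lower and higher genes were both found with many CG. Of called genes whose windows are not shown, Col11a1 (lower) held 9 CG, Col5a1 (higher) 34 and Col7a1 (higher) 12.

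Basement membrane chains were among the highest matrix genes in WT libraries of both ages. Of the 63 genes, 50 averaged at least 1 CPM over the 12 libraries and 28 at least 10 CPM, while 13 lay under 1 CPM. Per kb of exon, the highest levels in E16.5 WT libraries were those of Col4a1 (15.9 CPM per kb), Lamb1 (13.1), Lamc1 (12.5), Col4a2 (11.6) and Fbln1 (11.5). Col11a1, whose chain sets the width of collagen fibrils, followed at 10.95 CPM per kb, and Fbn2 stood at 9.95. In E14.5 WT libraries the fibrillar Col2a1 was highest at 17.75 CPM per kb, before Col4a1 (14.8), Fbln1 (14.3), Lamc1 (12.4) and Lamb1 (11.1). In E16.5 WT libraries the classical meningeal collagens were lower, at 2.23 CPM per kb for Col3a1, 1.49 for Col1a2 and 1.41 for Col1a1. Among alpha chains of laminin, Lama4 of vessels (4.09 CPM per kb) and Lama1 of the pial membrane (3.29) led, above Lama5 (2.34), Lama2 (1.89) and Lama3 (0.167). Col10a1, the cartilage growth-plate collagen, had 1 count in all 12 libraries together.

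**Figure D1:**
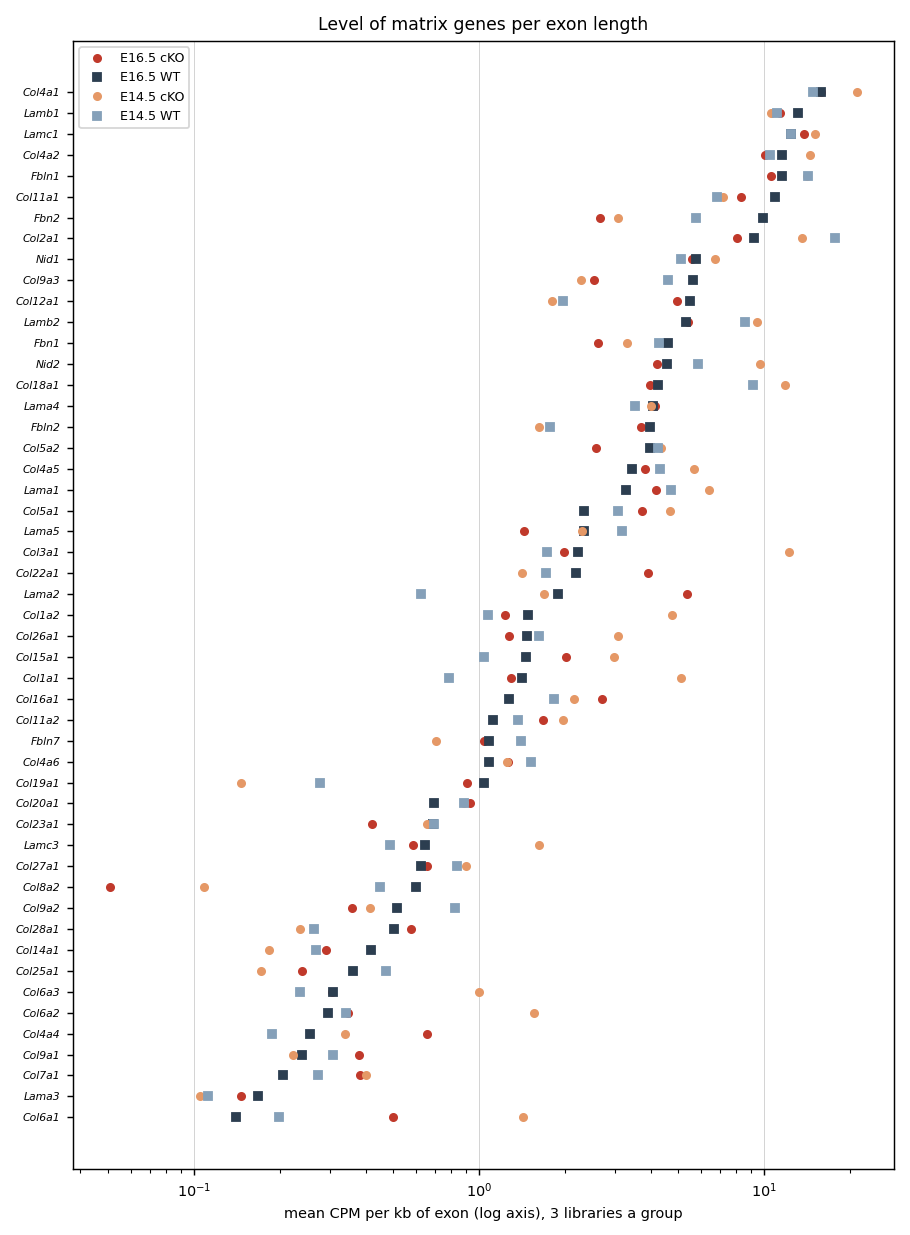
Mean CPM per kb of exon on a log axis for the 50 matrix genes averaging at least 1 CPM, in order of their E16.5 WT level, with 1 symbol for each group of 3 libraries. Col4a1 leads at 15.9 CPM per kb in E16.5 WT, and the E14.5 cKO means of Col1a1, Col3a1 and Col6a1 lie far to the right of the other groups.

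At E16.5, loss of Ash2l went with lower fibrillins and with a mixed picture among collagens and laminins. Both fibrillins, Col9a3, Lama5 and Col11a1 were lower in cKO, and Col16a1, Col5a1, Col4a4, Col7a1 and Lama2 were higher. Those 10 were called (edgeR quasi-likelihood test, adjusted p under 0.05) among the 55 matrix genes tested, 5 higher and 5 lower. Over all genes tested 15.9% were called, 5.98% higher and 9.88% lower. The median log2 fold change was -0.05 over the 55 matrix genes and 0.02 over all genes. The other 8 of the 63 (Col10a1, Col13a1, Col17a1, Col24a1, Col6a4, Col6a6, Col8a1 and Col8a2) were too low to be tested at E16.5. Every one of the 10 called genes but Lama2 had groups that did not overlap. In all, 10 matrix genes lay higher in every cKO library than in any WT library and 9 lay lower, where the shares over all genes tested were 19.3% and 18.3%.

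**Figure D2:**
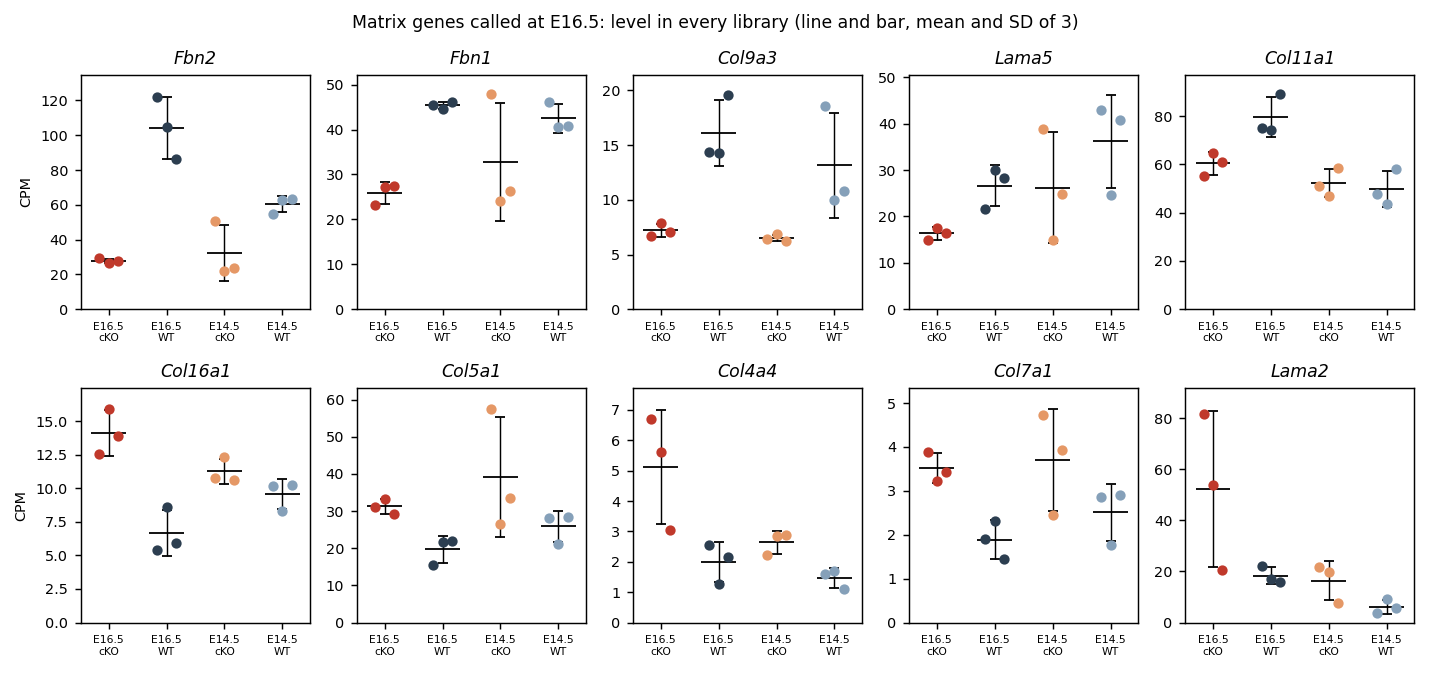
CPM in each library (points, in the order A, B, C) for the 10 matrix genes called at E16.5, with the mean and SD of 3 libraries. In the upper row the E16.5 cKO points lie below all WT points of that age, and in the lower row all but those of Lama2 lie above them.

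Both fibrillins fell in E16.5 cKO. Fbn2, the fibrillin that dominates in embryos, stood at 29.3, 26.6 and 27.5 CPM in E16.5 cKO A, B and C, against 122, 105 and 86.3 CPM in E16.5 WT A, B and C. The 3 cKO libraries were close to each other and far below the lowest WT library. The log2 fold change was -1.91 (SE 0.126, adjusted p = 8.19e-04). Fbn1, the fibrillin mutated in Marfan syndrome, stood at 23.1, 27.2 and 27.4 CPM in cKO, against 45.5, 44.6 and 46.2 CPM in WT, again without overlap, and changed by -0.82 (SE 0.0909, adjusted p = 0.00211). The ratio of Fbn2 to Fbn1 was 1.27, 0.977 and 1.005 in cKO A, B and C, against 2.68, 2.35 and 1.87 in WT A, B and C, so Fbn2 was lower relative to Fbn1 in every cKO library. Both genes remained called at E16.5 under each of the 14 alternatives tried, including the loss of any 1 library. In mm10, Fbn2 spans 58008623 to 58209926 of chromosome 18 (minus strand, 65 exons), and Fbn1 spans 125300594 to 125506438 of chromosome 2 (minus strand, 66 exons).

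The fibulins with Fbln symbols, which join fibrillin and basement membrane matrix, gave no call at E16.5. The 4 of them had log2 fold changes between -0.76 and -0.05. Fbln1, the highest of them per kb, stood at 37.6, 35.1 and 33.8 CPM in cKO, against 39.8, 41.0 and 35.6 CPM in WT, so the groups overlapped. Fbln2, a ligand of laminins and nidogens, stood at 20.6, 20.1 and 8.92 CPM in cKO, against 21.2, 18.5 and 13.8 CPM in WT, with overlap as well.

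Among FACIT collagens, which decorate the surface of other fibrils, 1 gene fell and 1 rose of 9 tested. Col9a3, a chain of collagen IX of cartilage and eye, stood at 6.71, 7.89 and 7.07 CPM in E16.5 cKO, against 14.4, 14.3 and 19.6 CPM in WT. No cKO library reached the lowest WT library, and the change was -1.16 (SE 0.163, adjusted p = 0.00421). WT C, its highest library, was also the one with high choroid plexus markers (631 CPM over 8 genes, against 9.19 to 34.2 CPM in the other 5). Without WT C the log2 fold change of Col9a3 was -0.99 (adjusted p = 0.0113), still called. Its partner chains were lower in level and not called: Col9a1 stood at 1.60, 1.71 and 1.12 CPM in cKO, against 1.01, 0.814 and 0.975 CPM in WT, and Col9a2 at 0.958, 0.934 and 1.057 CPM in cKO, against 1.38, 0.465 and 2.41 CPM in WT. Col9a1 thus lay higher in cKO in all 3 libraries, on the other side of zero from Col9a3.

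Col16a1, a FACIT collagen that links to fibrils and microfibrils, stood at 12.5, 15.9 and 13.9 CPM in cKO, against 5.36, 8.60 and 5.95 CPM in WT. All cKO libraries lay above all WT libraries, and the change was 1.08 (SE 0.198, adjusted p = 0.0109). Without cKO B the log2 fold change was 0.98 with an adjusted p of 0.0535, and in the other 13 alternatives it was called. The remaining FACIT genes were not called. Col12a1, made by meningeal and other connective tissue cells, stood at 48.3, 76.3 and 48.2 CPM in cKO, against 63.4, 67.1 and 61.5 CPM in WT. Col22a1, known from tissue junctions, reached 43.3 CPM in cKO A, against 15.8 and 13.0 CPM in cKO B and C and 10.2 to 16.8 CPM in WT libraries, so 1 library set its mean.

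Fibrillar collagens split. Col5a1, which starts and limits the fibrils of collagen I, stood at 31.1, 33.3 and 29.3 CPM in cKO, against 15.6, 21.6 and 21.9 CPM in WT, and rose by 0.66 (SE 0.142, adjusted p = 0.0200). Its call was lost without cKO B (adjusted p = 0.0846) and without WT B (0.0532). Col5a2, the partner chain of the same trimer, stood at 12.8, 22.3 and 15.9 CPM in cKO, against 27.9, 24.5 and 26.5 CPM in WT. So while Col5a1 lay higher in every cKO library, Col5a2 lay lower in every one, at -0.64 (SE 0.188, adjusted p = 0.0570), short of the threshold. Col11a1 stood at 55.4, 64.8 and 61.1 CPM in cKO, against 75.2, 74.3 and 89.4 CPM in WT, and fell by 0.41 on the log2 scale (SE 0.0985, adjusted p = 0.0299). Without 1 library its adjusted p ran between 0.0387 and 0.0901, and it was called with 1 of the 6 left out.

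Collagens I and III, the fibrils of the meninges, showed no call at E16.5. Col3a1 stood at 12.6, 10.3 and 10.4 CPM in cKO, against 11.3, 13.7 and 12.3 CPM in WT. Col1a1 stood at 6.55, 6.18 and 5.62 CPM in cKO, against 6.48, 7.96 and 5.49 CPM in WT. Both overlapped between genotypes. Col1a2, the other chain of collagen I, lay lower in every cKO library, at 6.07, 6.69 and 6.28 CPM, against 7.06, 7.26 and 8.62 CPM in WT, with a change of -0.28 (SE 0.147, adjusted p = 0.242). The meningeal marker sums were alike in range, with 39.3 to 55.8 CPM in cKO and 45.9 to 64.5 CPM in WT libraries. Igf2 gave most of these sums, at 28.7 to 43.4 CPM in cKO and 33.0 to 48.2 CPM in WT. None of the 9 meningeal markers tested at E16.5 was called. Col2a1, the cartilage collagen that neural progenitors also express, stood at 23.5, 48.9 and 51.7 CPM in cKO, against 38.3, 51.3 and 52.0 CPM in WT, with cKO A lowest.

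Among the chains of collagen IV, the sheet of basement membranes, the scarce Col4a4 was called without a replicate block. Of the abundant chains, Col4a1 was not called, and Col4a2 was called only in the fit with the block. Col4a1 stood at 132, 97.8 and 84.6 CPM in cKO, against 123, 91.5 and 100.2 CPM in WT. Col4a2, which pairs with it, stood at 80.4, 61.3 and 53.1 CPM in cKO, against 86.2, 67.1 and 70.6 CPM in WT. Both overlapped between the groups. Col4a2 was lower in cKO within each pair of libraries with the same letter, with a log2 fold change of -0.21 (adjusted p = 0.418) without the block and -0.22 (adjusted p = 0.0440) with it. The ratio of Col4a1 to Col4a2 was 1.65, 1.60 and 1.59 in cKO, against 1.43, 1.36 and 1.42 in WT, without overlap and not tested. Endothelial and pericyte markers, which share their cells with much of this collagen, summed to 269 to 384 CPM in cKO and 307 to 349 CPM in WT, and none of 20 was called. Col4a4, which with Col4a3 and Col4a5 forms the filter membrane of the kidney, stood at 6.71, 5.60 and 3.04 CPM in cKO, against 2.55, 1.28 and 2.16 CPM in WT. The cKO libraries lay higher throughout, by 1.35 (SE 0.357, adjusted p = 0.0395). That call held with cKO C left out and with none of the other 5 left out, where its adjusted p ran up to 0.129. Col4a3, its head-to-head neighbour, stood at 0.585, 1.40 and 0.991 CPM in cKO, against 0.159, 0.174 and 1.13 CPM in WT, and was not called.

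Of 5 anchoring and beaded filament collagens tested at E16.5, 1 was called in the main edgeR fit, without a replicate block, and it was higher in cKO. Col7a1, the anchoring fibril collagen of skin, stood at 3.89, 3.22 and 3.44 CPM in cKO, against 1.91, 2.33 and 1.44 CPM in WT, a change of 0.89 (SE 0.242, adjusted p = 0.0438). It was not called with any 1 library left out (adjusted p between 0.0701 and 0.117). Col6a1, a chain of the collagen VI filaments around cells, stood at 3.67, 1.61 and 0.661 CPM in cKO, against 0.425, 0.639 and 0.616 CPM in WT, with cKO A far above the rest. Its change of 1.83 (SE 0.603, adjusted p = 0.0795) missed the threshold. Col6a2, its obligate partner, stood at 1.81, 1.09 and 0.991 CPM in cKO, against 0.531, 1.74 and 1.03 CPM in WT, with overlap.

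Among laminin alpha chains, 1 fell and 1 rose at E16.5 in the main edgeR fit, without a replicate block. Lama5, an alpha chain of mature basement membranes, stood at 15.0, 17.6 and 16.51 CPM in cKO, against 21.7, 30.0 and 28.3 CPM in WT, and fell by 0.71 on the log2 scale (SE 0.143, adjusted p = 0.0152). Leaving out WT B (adjusted p = 0.0683) or WT C (0.0518) ended its call. Lama2, the alpha chain missing in a congenital muscular dystrophy, stood at 81.8, 53.8 and 20.7 CPM in cKO, against 22.1, 17.1 and 15.96 CPM in WT. Here cKO A and B were high and cKO C lay below WT A, so the groups overlapped and the size rested on 2 libraries. The change was 1.502 (SE 0.422, adjusted p = 0.0486). Without cKO A it was 1.02 (adjusted p = 0.159), and Lama2 was called with 1 of the 6 libraries left out. The pericyte and endothelial markers followed the same order in E16.5 cKO (384, 323 and 269 CPM in A, B and C). Elsewhere the order differed. E16.5 WT A held 349 CPM of these markers, more than cKO B, with Lama2 at 22.1 CPM. At E14.5, cKO B had the lowest sum (241 CPM) with Lama2 at 19.7 CPM, and cKO C had 287 CPM with Lama2 at 7.80 CPM. The part of these markers in the Lama2 values was not tested.

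Lama1, with Lamb1 and Lamc1 the laminin of the pial membrane, stood at 36.3, 42.3 and 40.5 CPM in cKO, against 27.6, 35.8 and 30.5 CPM in WT, higher throughout at 0.34 (SE 0.116, adjusted p = 0.0885). Lamb1 stood at 79.5, 67.0 and 51.4 CPM in cKO, against 74.8, 71.0 and 81.9 CPM in WT. Lamc1, the gamma chain of most laminins, stood at 112, 102 and 102 CPM in cKO, against 101.1, 89.2 and 94.4 CPM in WT, with the lowest cKO value just above the highest WT value. Neither was called. Lamb3, the beta chain of skin laminin, was scarce, at 1.81, 0.778 and 0.859 CPM in cKO, against 0.106, 0.523 and 0.154 CPM in WT. Its change was 2.15 (SE 0.622, adjusted p = 0.0534). It had 34, 15 and 13 counts in cKO A, B and C, against 2, 9 and 3 in WT A, B and C. Only its cKO libraries reached the level asked by the filter on low counts, so its entry into the test already leaned to a rise. Nid1 and Nid2, which tie laminin to collagen IV, were not called, and their sum averaged 54.5 ± 6.46 CPM in cKO and 57.3 ± 3.31 CPM in WT (SD, n = 3 each).

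Transmembrane and multiplexin collagens gave no call at E16.5 in the main edgeR fit, without a replicate block. Col23a1, a transmembrane chain, stood at 2.29, 2.85 and 2.05 CPM in cKO, against 4.41, 3.55 and 3.80 CPM in WT, and Col25a1, which is made by neurons, at 2.18, 1.56 and 1.65 CPM in cKO, against 3.13, 2.62 and 2.36 CPM in WT. Both lay lower in every cKO library. Col18a1, whose end fragment is endostatin, stood at 19.4, 25.2 and 24.8 CPM in cKO, against 20.6, 24.0 and 29.1 CPM in WT. Col15a1, its relative, stood at 11.5, 11.6 and 9.12 CPM in cKO, against 11.4, 6.10 and 5.90 CPM in WT. Both overlapped.

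Further tested genes (Col1a2, Col11a2, Col27a1, Col5a3, Col14a1, Col19a1, Col20a1, Col4a5, Col4a6, Col6a3, Col6a5, Col26a1, Col28a1, Lama3, Lama4, Lamb2, Lamc3 and Fbln5) were not called at E16.5 in the main edgeR fit, without a replicate block. Col4a5, on the X chromosome, stood at 19.0, 26.7 and 28.7 CPM in cKO, against 18, 23.4 and 25.5 CPM in WT. Its head-to-head neighbour Col4a6 stood at 9.90, 8.77 and 6.61 CPM in cKO, against 6.80, 6.92 and 7.85 CPM in WT. Lama4, of vessel membranes, stood at 33.1, 22.4 and 19.95 CPM in cKO, against 29.1, 22.6 and 22.5 CPM in WT, and Lamb2, a beta chain of mature membranes, at 21.0, 34.5 and 35.6 CPM in cKO, against 28.6, 32.4 and 28.5 CPM in WT. All 4 overlapped between genotypes. Col11a2, the partner of Col11a1 in collagen XI, lay higher in every cKO library, at 9.69, 9.13 and 9.38 CPM, against 7.44, 7.09 and 4.26 CPM in WT.

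**Figure D3:**
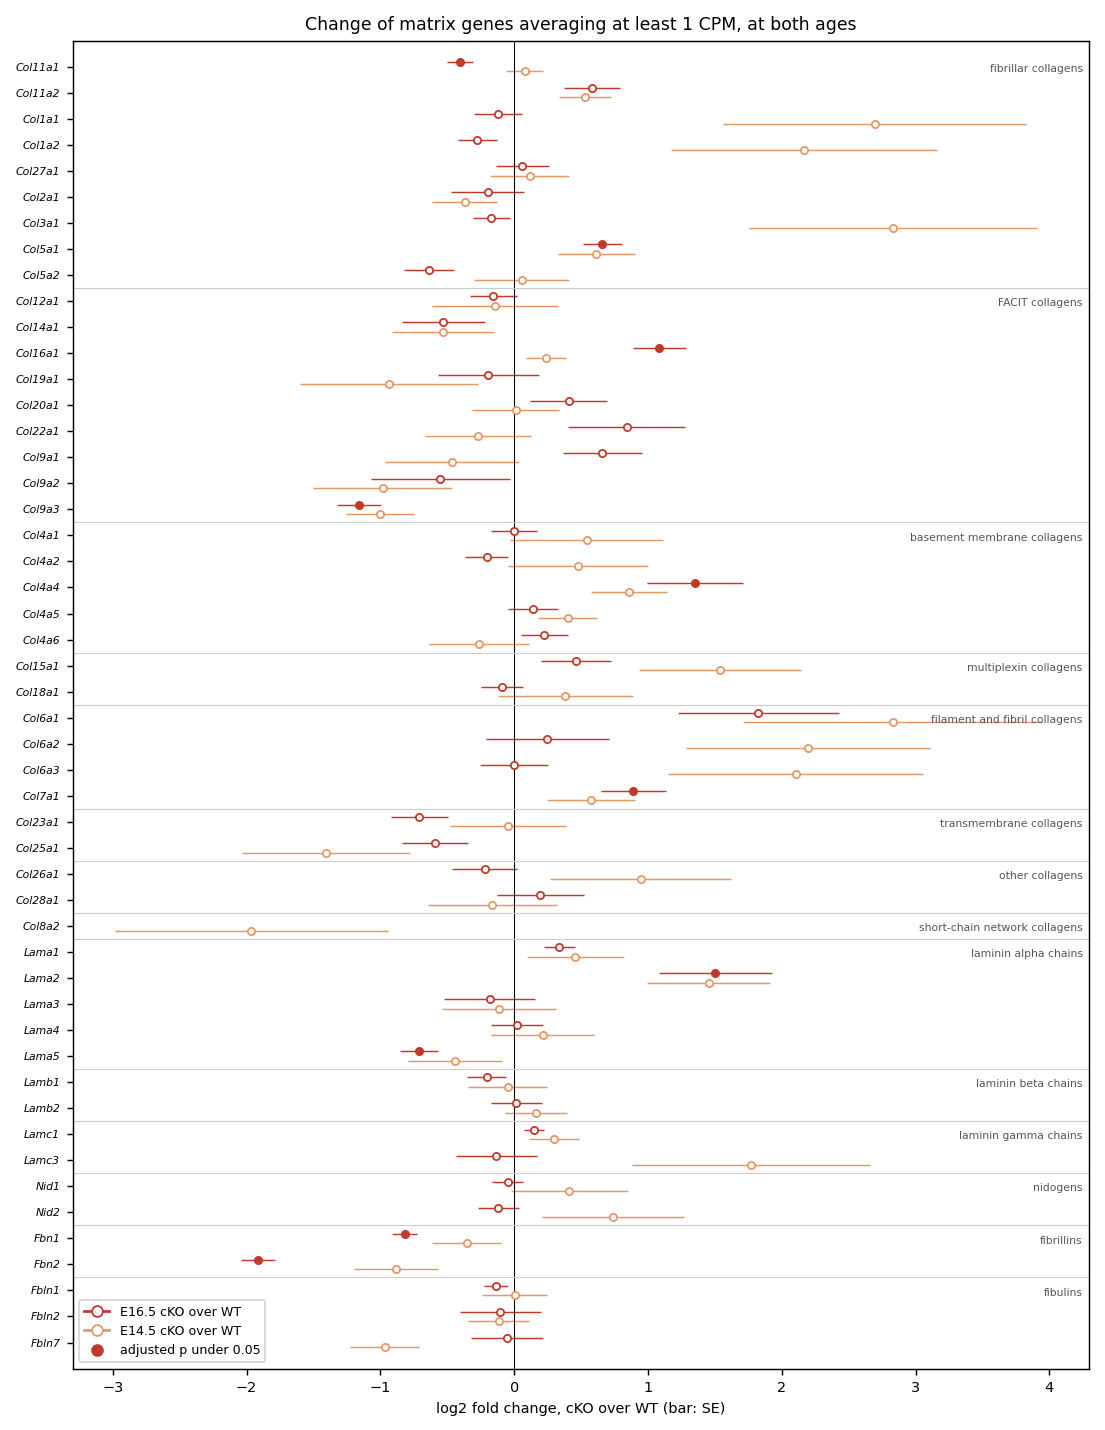
Log2 fold change of cKO over WT with its SE for the 50 matrix genes averaging at least 1 CPM, E16.5 above E14.5 in each row, by class of gene; filled points passed the adjusted p threshold. Fbn2 lies farthest left of the filled points at -1.91, and the E14.5 points of collagens I, III and VI lie far right with wide bars.

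Because libraries with the same title number deviated together at E16.5, a fit with that number as a block was made as well. It called 17 of the matrix genes, 9 higher and 8 lower, where 32.2% of all genes were called. Lama2 was no longer among them (adjusted p = 0.110), and the other 9 of the 10 were. Added were Col6a1, Col6a5, Col11a2, Lama1 and Lamb3, all higher, and Col4a2, Col5a2 and Col23a1, all lower. Lama1 had an adjusted p of 0.00785 and Col5a2 one of 0.0281 in that fit. DESeq2 without the block called 13 matrix genes (19.0% of all genes), the 10 and Col5a2, Col6a1 and Lamb3. One fit of all 12 libraries called 6, namely both fibrillins, Col9a3, Col16a1, Col4a4 and Lamb3, where 12.3% of all genes were called. The same fit with embryo sex as a term also called 6, where the share of all genes was 10.2%. In the fits named here that called Lamb3, it passed the filter on low counts mainly through its E16.5 cKO libraries. With 1 library left out the count ran between 5 and 9, and calls over all genes changed as well. Without cKO B it was 6, all lower, where 6.59% of all genes were called and 1.75% called higher. Without WT B it was 5 (6.50% of all genes), and without WT C it was 6 (10.9% of all genes). In the authors' deposited table, 13 matrix genes had an adjusted p under 0.05 at E16.5, with 7 higher and 6 lower in cKO, where 17.0% of all genes with an adjusted p passed it.

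At E14.5 no matrix gene was called by edgeR, and libraries of 1 genotype differed widely. Of 55 matrix genes tested, edgeR called 0, where 2.01% of all genes were called. At an unadjusted p under 0.05 there were 12, 9 of them higher and 3 lower, against 20.2% of all genes. DESeq2 called 4 (8.64% of all genes), Lama2 and Col6a1 higher and Col9a3 and Fbln7 lower. The median log2 fold change was 0.16 with 33 of 55 above zero, and without cKO A it was -0.13 with 22 of 55 above zero. Not tested at E14.5 were Col10a1, Col13a1, Col17a1, Col5a3, Col6a4, Col6a6, Col8a1 and Lamb3. Groups did not overlap for Col11a2, Col16a1 and Col4a4, which lay higher in cKO, and for Col9a3, Fbln7 and Fbn2, which lay lower. Over all genes tested, 11.9% lay wholly higher in cKO and 14.8% wholly lower. Of the 10 genes called at E16.5, 9 had the same sign at E14.5, Col11a1 being the exception. In the authors' deposited table, 4 matrix genes had an adjusted p under 0.05 at E14.5. Lama2 was higher in cKO there, and Col9a3, Fbln7 and Fbn2 were lower. The share of all genes in that table was not computed for E14.5.

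Fbn2 stood at 50.7, 22.03 and 23.9 CPM in E14.5 cKO A, B and C, against 54.9, 62.5 and 63.5 CPM in E14.5 WT A, B and C. Its cKO B and C values were far below every WT value, while cKO A came close to WT A. The change was -0.89 (SE 0.313, adjusted p = 0.178), and without cKO A it was -1.39 (adjusted p = 0.00726). Fbn1 stood at 47.9, 24.2 and 26.4 CPM in cKO, against 46.2, 40.5 and 40.7 CPM in WT, with cKO A highest of all. Its change was -0.36 (SE 0.259, adjusted p = 0.486), and without cKO A it was -0.75 (adjusted p = 0.0276). Those 2 were the only matrix genes that were called with cKO A left out, where 2.35% of all genes were called.

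Col9a3 stood at 6.46, 6.83 and 6.24 CPM in E14.5 cKO, against 18.6, 9.99 and 10.8 CPM in WT, without overlap, at -1.004 (SE 0.253, adjusted p = 0.0891). The WT A library, highest here, held 487 CPM of choroid plexus markers, against 28.9 to 61.1 CPM in the other 5. Without WT A the log2 fold change was -0.67 (adjusted p = 0.130), and without cKO A it was -1.02 (adjusted p = 0.119). Fbln7, a fibulin of cell adhesion, stood at 2.26, 1.60 and 2.30 CPM in cKO, against 4.60, 3.35 and 4.29 CPM in WT, at -0.97 (SE 0.258, adjusted p = 0.101), or -1.05 (adjusted p = 0.111) without cKO A. At E16.5 Fbln7 overlapped, with 3.03, 3.84 and 2.25 CPM in cKO and 2.44, 3.49 and 3.54 CPM in WT. Lama2 stood at 21.8, 19.7 and 7.80 CPM in E14.5 cKO, against 3.60, 9.11 and 5.495 CPM in WT, at 1.45 (SE 0.459, adjusted p = 0.145), and as at E16.5 its cKO C library overlapped WT. Without cKO A the log2 fold change of Lama2 was 1.17 (adjusted p = 0.254). Col4a4 stood at 2.21, 2.86 and 2.87 CPM in cKO, against 1.60, 1.71 and 1.11 CPM in WT, at 0.86 (SE 0.282, adjusted p = 0.155), or 0.96 (adjusted p = 0.149) without cKO A.

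The fibrillar and beaded filament collagens of the meninges were high in a single E14.5 library. Col3a1 stood at 176 CPM in cKO A and at 8.65 and 19.9 CPM in cKO B and C, against 8.35, 5.25 and 15.4 CPM in WT. Col1a1 stood at 60.9 CPM in cKO A and at 3.07 and 8.09 CPM in cKO B and C, against 2.75, 0.949 and 7.39 CPM in WT. For Col6a1 the values were 14.7, 0.767 and 1.60 CPM in cKO, against 0.5, 0.443 and 1.43 CPM in WT. The other libraries overlapped between genotypes for all 3 genes. Their log2 fold changes of 2.83 (SE 1.08), 2.69 (SE 1.135) and 2.83 (SE 1.12) had adjusted p of 0.204, 0.242 and 0.220. Without cKO A the log2 fold changes were 0.57 for Col3a1, 0.60 for Col1a1 and 0.59 for Col6a1, with adjusted p of 0.587, 0.720 and 0.637. Over the 6 chains of collagens I, III and VI (Col1a1, Col1a2, Col3a1, Col6a1, Col6a2 and Col6a3), cKO A, B and C summed to 353, 18.4 and 45.5 CPM, against 19.95, 12.1 and 38.4 CPM in WT A, B and C. Meningeal markers summed to 235, 40.2 and 67.3 CPM in cKO, against 52.3, 45.2 and 86.2 CPM in WT, and cKO A was highest in both. None of the 12 meningeal markers tested was called, and their part in the collagen values was not tested.

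Basement membrane genes were raised in that library too. Col4a1 stood at 284, 53.3 and 83.6 CPM in E14.5 cKO, against 81.9, 121 and 90.7 CPM in WT. Nid2 stood at 92.5, 19.4 and 29.8 CPM in cKO, against 32.8, 23.8 and 29.6 CPM in WT. Lamc3, a gamma chain found in the meninges and vessels, stood at 23.5, 1.74 and 3.53 CPM in cKO, against 2.5, 3.80 and 2.36 CPM in WT. For each of the 3, cKO A was highest and cKO B lowest of all 6 libraries. Without cKO A the log2 fold changes were -0.52 for Col4a1, -0.22 for Nid2 and -0.09 for Lamc3, with adjusted p of 0.303, 0.624 and 0.924. In cKO A, 19 of the 55 tested genes were at least 2 times and 9 at least 4 times the mean of the other 5 libraries. On the log2 scale, 19 of the 55 lay more than 1 unit above the mean of the other 5, against 2.56% of all genes tested. The share of all genes at 4 times was not computed. Col12a1 and Col19a1 went the other way, at 8.56 and 0.323 CPM in cKO A, where the other 5 libraries held 17.15 to 36.7 CPM and 1.52 to 4.49 CPM.

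**Figure D4:**
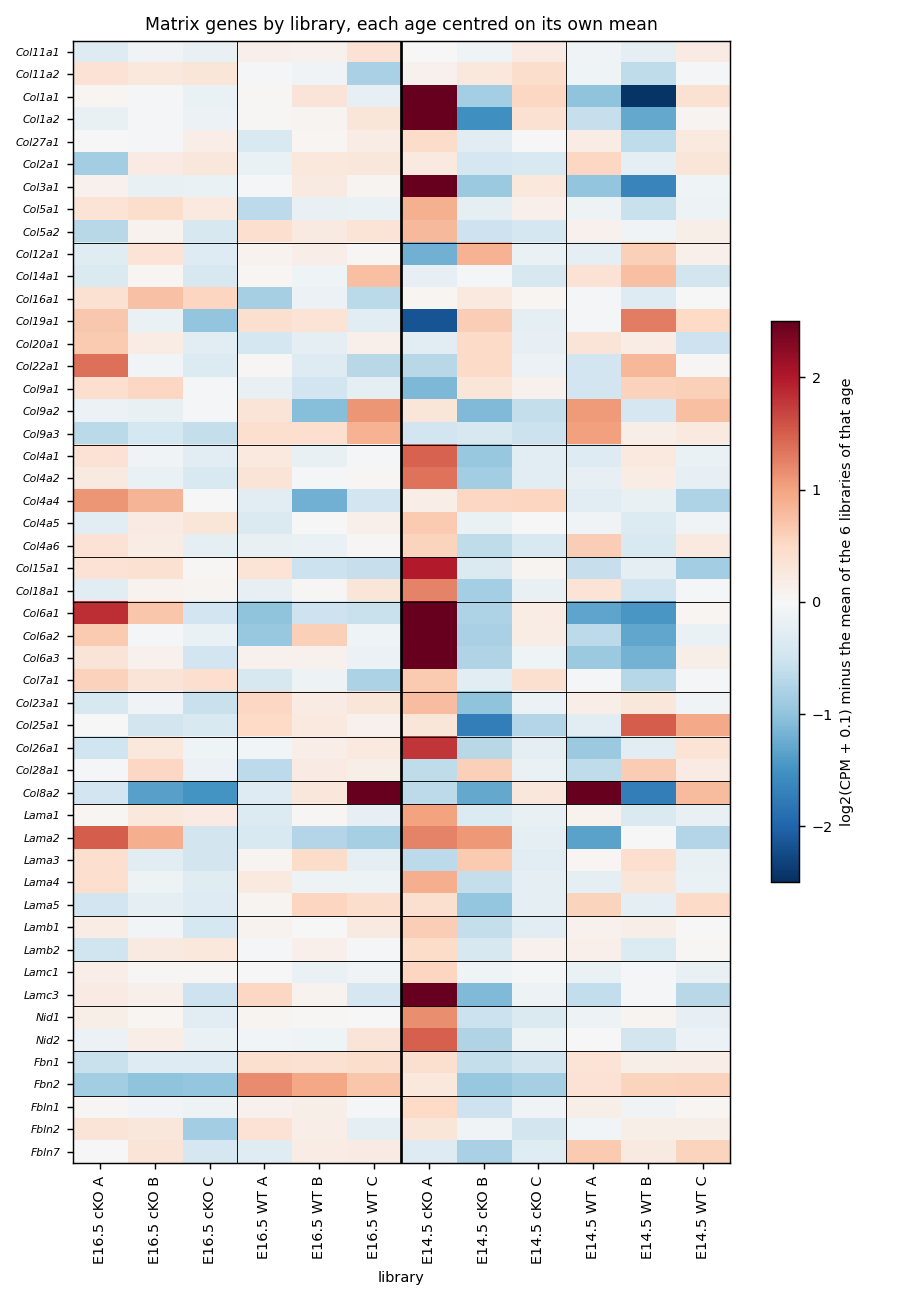
Log2(CPM + 0.1) of 50 matrix genes in each library minus the mean of the 6 libraries of that age, with colours ending at 2.5 units either way and lines between classes of genes. E14.5 cKO A is dark for collagens I, III and VI, and both fibrillins are pale or blue in cKO and red in WT columns at E16.5.

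Some matrix genes were highest in WT libraries that held high markers of other tissues. Col8a2, a network collagen of the eye, stood at 6.67 CPM in E16.5 WT C and 4.50 CPM in E14.5 WT A, the 2 libraries with high choroid plexus markers, and at 0.127 to 1.201 CPM in the other 10. Col8a1 was highest in the same 2, at 2.72 and 1.10 CPM. Ventral telencephalon markers (10 genes, such as Dlx2 and Gad2) were highest in E14.5 WT B at 309 CPM, against 22.6 to 125 CPM in the other E14.5 libraries. That library was also the highest of the 6 for Col25a1 (5.44 CPM) and Col19a1 (4.49 CPM). It was the highest for 6 of the 55 tested matrix genes and for 24.5% of all genes tested. Col25a1 was lowest in cKO B (0.488 CPM, markers 90.4 CPM) and stood at 2.32 CPM in cKO A, where the ventral markers were lowest (22.6 CPM). Col19a1 was lowest in cKO A (0.323 CPM). The part of these tissues in the values was not tested. None of the choroid plexus or ventral markers was called at either age.

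**Figure D5:**
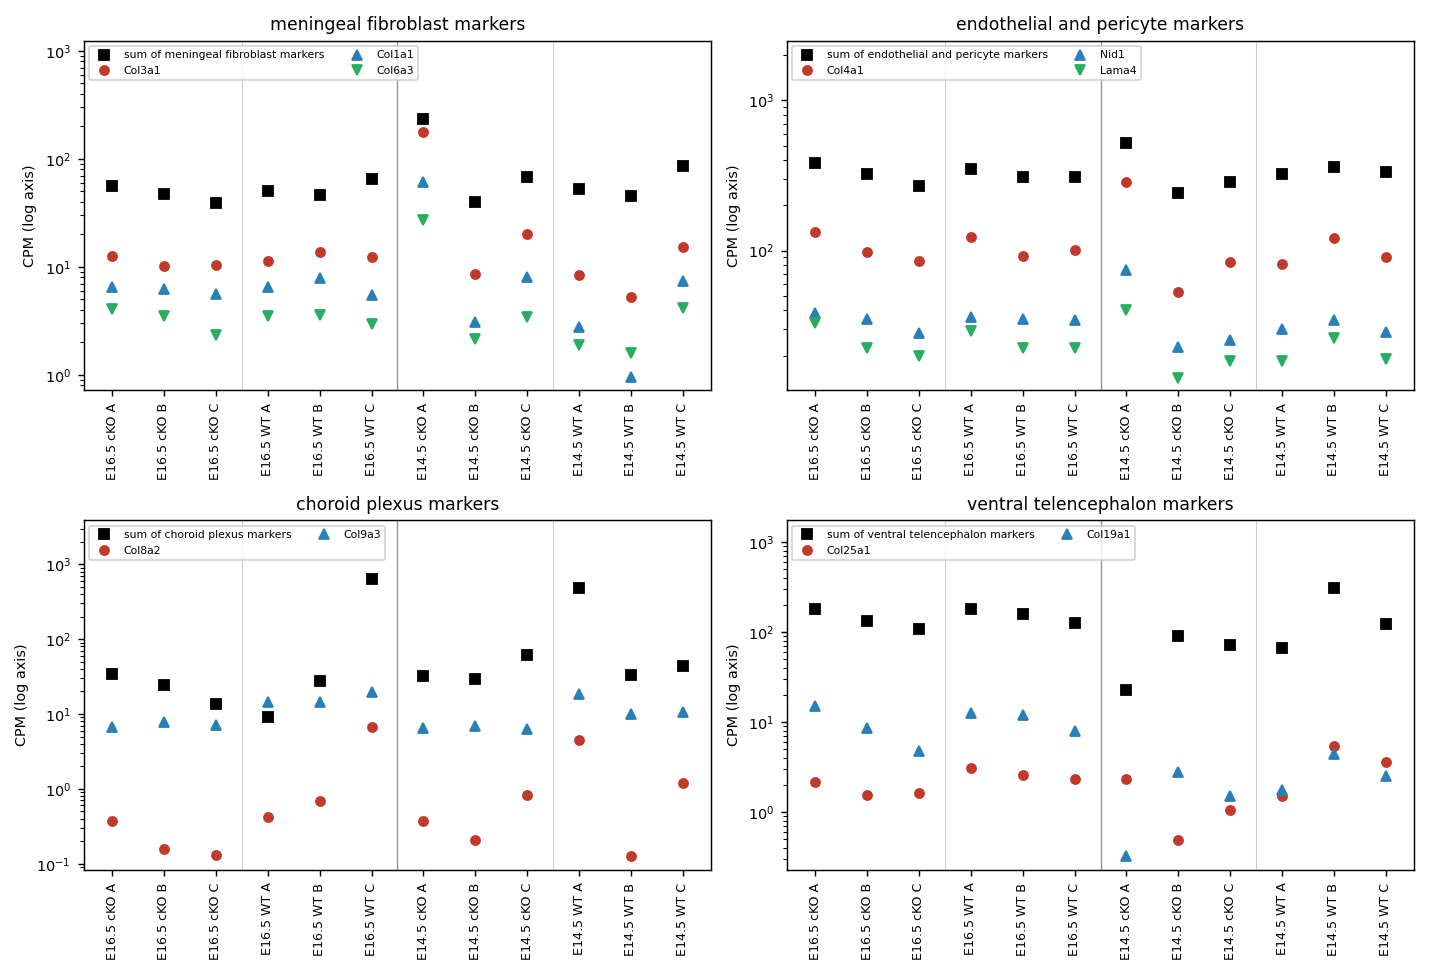
Summed CPM of each marker list (black squares) and CPM of matrix genes (coloured points) in every library, on log axes. Collagens I, III and VI peak with meningeal markers in E14.5 cKO A, and Col8a2 peaks with choroid plexus markers in E16.5 WT C and E14.5 WT A.

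Whether the effect of Ash2l loss differed between the ages was tested in 1 fit of the 12 libraries. edgeR called 0 of 58 matrix genes and 0.00% of all genes, and DESeq2 called 0 matrix genes as well. At an unadjusted p under 0.05 there were 7 matrix genes, against 2.07% of all genes. Col16a1 (difference 0.86, SE 0.252) and Fbln7 (0.93, SE 0.365) had more positive changes at E16.5. Fbn2 (-1.01, SE 0.360), Col11a1 (-0.47, SE 0.176), Col3a1 (-2.97, SE 1.201), Col1a1 (-2.78, SE 1.24) and Col1a2 (-2.41, SE 1.10) had more negative ones. Each of the 7 had an adjusted p of 0.9999, so none is shown to differ between ages. Col3a1, Col1a1 and Col1a2 reached 176, 60.9 and 60.6 CPM in E14.5 cKO A. Elsewhere at that age none of them exceeded 19.9 CPM. The median difference over the matrix genes was -0.13, with 21 of 58 above zero. Leaving out E14.5 cKO A turned its sign, to 0.10 with 38 of 59 above zero. Differences of single genes without that library are not given here.

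Between WT embryos of the ages, which also differ in any unlabelled way the collections did, 2 of 58 matrix genes were called. Both were higher at E16.5, where 2.15% of all genes were called, 0.763% higher and 1.39% lower. Col11a1 stood at 75.2, 74.3 and 89.4 CPM in E16.5 WT, against 47.7, 43.5 and 58.1 CPM in E14.5 WT, a rise of 0.68 (SE 0.125, adjusted p = 0.0302). Col5a3, a scarce chain of collagen V, stood at 0.478, 0.756 and 0.565 CPM in E16.5 WT, against 0.1, 0.0633 and 0.0924 CPM in E14.5 WT. Its rise was 2.69 (SE 0.542, adjusted p = 0.0372). It had 9, 13 and 11 counts in E16.5 WT A, B and C, against 2, 1 and 2 in E14.5 WT. Col5a3 passed the filter on low counts through E16.5 libraries alone, so its entry into the fit already leaned to a rise with age. Neither overlapped between ages. Fbn2, at 122, 105 and 86.3 CPM in E16.5 WT and 54.9, 62.5 and 63.5 CPM in E14.5 WT, also did not overlap but was not called. DESeq2 called 8 matrix genes here (13.1% of all genes), 6 higher and 2 lower. edgeR called 0 matrix genes when any 1 E16.5 WT library, E14.5 WT A, E14.5 WT C or E16.5 cKO B was left out, and in those fits it called between 1 and 60 of all genes. It called 9 matrix genes without E14.5 cKO A (11.6% of all genes), 7 without E14.5 WT B (14.2%), 5 without E14.5 cKO B (8.20%) and 1 without E14.5 cKO C (0.352%).

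The genes that process and receive this matrix were read from lists. Of 27 tested genes for collagen processing and crosslinking, 2 were higher and 5 lower in E16.5 cKO, where 5.98% of all genes were called higher and 9.88% lower. Adamts2, which trims procollagen, stood at 2.98, 4.62 and 2.97 CPM in cKO, against 14.3, 10.1 and 9.24 CPM in WT (log2 fold change -1.67, SE 0.245, adjusted p = 0.00502). P4ha3, a prolyl hydroxylase subunit, changed by -1.64 (SE 0.275, adjusted p = 0.00788) and P3h3, another prolyl hydroxylase, by -0.58 (SE 0.101, adjusted p = 0.00921). P4ha1, the main prolyl hydroxylase subunit, changed by 0.33 (SE 0.0785, adjusted p = 0.0272). At E14.5, P4ha3 at -2.12 (SE 0.395, adjusted p = 0.0452) and P3h3 at -0.75 (SE 0.114, adjusted p = 0.0308) were the 2 lower calls, with 0 higher, where 2.01% of all genes were called. Without cKO A, P3h3 at -0.75 (adjusted p = 0.0388) was still called and P4ha3 at -2.08 (adjusted p = 0.0679) was not. Both prolyl hydroxylases lay lower in every cKO library at both ages. The median of this list was -0.11 at E16.5 and -0.06 at E14.5.

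Of 21 matrix receptors, 2 were lower and 0 higher at E16.5, where 9.88% of all genes were called lower and 5.98% higher. Itga5, the fibronectin receptor subunit, stood at 7.18, 7.99 and 8.52 CPM in cKO, against 13.0, 11.5 and 13.5 CPM in WT (-0.69, SE 0.130, adjusted p = 0.0120). Ddr2, a collagen receptor kinase, stood at 6.39, 11.1 and 7.60 CPM in cKO, against 15.5, 22.7 and 13.6 CPM in WT (-1.04, SE 0.257, adjusted p = 0.0309). Of 26 other basement membrane and elastic fibre genes, 6 were lower and 0 higher, against the same shares of all genes. Smoc1, a matricellular calcium-binding protein, stood at 10, 9.03 and 9.58 CPM in cKO, against 27.9, 25.5 and 26.8 CPM in WT (-1.49, SE 0.0988, adjusted p = 8.19e-04). Efemp2, the fibulin needed to form elastic fibres, stood at 4.79, 6.02 and 5.62 CPM in cKO, against 10.4, 10.4 and 9.39 CPM in WT (-0.88, SE 0.145, adjusted p = 0.00727). Ntn4, a laminin-related netrin, changed by -1.12 (SE 0.152, adjusted p = 0.00387) and Tnr, a tenascin of neural matrix, by -1.063 (SE 0.196, adjusted p = 0.0112). Neither list had a call at E14.5 with edgeR, where 2.01% of all genes were called. Without cKO A there were 3, all lower, namely Itga5 (-1.06, adjusted p = 0.0492), Hmcn1 (-0.997, adjusted p = 0.0389) and Ntn4 (-1.05, adjusted p = 0.0474). The medians at E16.5 were -0.19 for receptors and -0.11 for the other matrix genes, against 0.02 for all genes.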

How the data were processed

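RNA of mouse dorsal cortex was sequenced in 12 libraries, 3 for each genotype and age given by the labels. Per the submitters' processing notes, the authors used STAR 2.5.2b, DESeq2 1.14.1 and the build mm10. Per the file headers, featureCounts 1.5.2 then gave raw counts of read pairs over RefSeq exons on the reverse strand (setting 2), leaving out chimeric pairs and pairs with 1 end aligned and asking for an overlap of 25 bases or more. Because strand was used, antisense genes were counted apart. The authors' deposited comparison tables give a log2 fold change of WT over knockout, a p-value and an adjusted p-value for each gene. They served for gene symbols and for the counts credited to them, and their 12 columns of normalised library values were not used.

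The main test was edgeR 4.0.16 (R 4.3.3, limma 3.58.1) with its quasi-likelihood F test in robust form, after filterByExpr by group and TMM scaling. Adjusted p-values are Benjamini-Hochberg values over every gene in a fit, and 0.05 was the threshold. Genotype was the term, within each age. The age difference and the WT comparison used 1 fit of 12 libraries. CPM are on TMM effective library sizes, and per kb values divide by the exon length in the count table. The SE is the size of the log2 fold change over the root of the F statistic. Alternatives were other scalings and filters, DESeq2 1.42.0, a replicate block, 1 fit of 12 libraries, embryo sex as a term and leaving out each library. The tests were checked on simulated data. Libraries of a group differed beyond sampling noise in a chi-square test of their counts (statistic per degree of freedom 9.06 to 48.25).

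Each title number is shared by a cKO and a WT library. At E16.5 their deviations from the group means correlated at 0.279 (A), 0.209 (B) and 0.111 (C), so the numbers were taken to pair the libraries there. At E14.5 they correlated at 0.272, 0.304 and -0.003, and because of pair C the numbers were not taken to pair the libraries. Pairs A and B correlated there about as much as at E16.5. Libraries with unlike numbers correlated at up to 0.106 at E16.5 and 0.091 at E14.5, so the evidence for pairing is much alike at both ages. The main test had no block at either age.

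The genes and lists were chosen with earlier results of these data known. Values by library were given for called genes, for the 2 highest genes per kb of each class with a mean of at least 1 CPM, for the gene of each class with the widest E14.5 range, and for partner chains. Col9a1, Col9a2, Col22a1, Col11a2, Lamb3, Col8a1 and Lamc3, and the list genes called at E14.5 without cKO A, were added after their values were seen. From each list up to 4 called genes were named by p. One gene of the set is not reported here by name.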

Additional observations from a re-analysis of the deposited data

How the results depend on the processing

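The count of matrix genes called at E16.5 was 10, and it was 17 with the replicate block, 6 in 1 fit of 12 libraries, 6 with embryo sex as a term and between 5 and 9 with 1 library left out. Over all genes the count was 2358, and it was 4790 with the block, 1569 with embryo sex as a term, and 995, 1127 and 987 without cKO B, WT A and WT B. At E14.5 the count was 0, and it was 4 with DESeq2, 3 in 1 fit of 12 libraries (Fbn2, Col9a3 and Fbln7, all lower), 1 with the replicate block (Col9a3) and between 0 and 2 with 1 library left out. There the count of all genes was 297, and it was 1278 with DESeq2, 1279 with the block, 1336 in 1 fit of 12 libraries, 128 with embryo sex as a term, and 5 without cKO C or without WT C. With the sex term, E14.5 sex and genotype separate only through the E16.5 libraries. For the age difference the count was 0 in each alternative run, and over all genes it was 1 with the block. In the WT age comparison it was 2, and it was 1 with a minimum of 1 CPM, 8 with DESeq2 and between 0 and 9 with 1 library left out, while over all genes it was 330, 2005 with DESeq2 and between 1 and 2216 with 1 library left out.

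Only some of the matrix genes were followed singly through these fits. Among those, the sign turned for 3, all at E14.5 and none of them called. Col8a2 was at 0.65 with embryo sex as a term, against -1.97 without. With 1 library left out, Lamc3 ran between -0.093 (without cKO A) and 2.245, against 1.77 with all, and Col11a1 between -0.007 and 0.202, against 0.08 with all. Genes that were not followed singly turned as well, such as Col4a1 and Nid2 at E14.5 without cKO A. In that fit 22 of 55 matrix genes lay above zero, against 33 of 55 with all libraries. The causes were not tested. A gene under 1 CPM rests on few fragments, and a missing call there does not show that it did not change.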
